A study of Mus musculus with 2 samples.

Results

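The genes described here encode proteins that neurons use at synapses and in the cytoskeleton of their axons and dendrites, together with a few RNA-binding, adhesion and signalling proteins of neurons. A list of 36 such genes was matched to the array annotation by current symbol or synonym, keeping probe sets assigned to a single gene and, for each gene, the one whose linear signal averaged highest. This found 35 of the 36 among 19938 named genes; Vamp2 shares its only probe set with another gene and is not reported. RNA was extracted from fetal ear of mice at E18.5, near the end of gestation, and was hybridised to Affymetrix arrays. 1 array held RNA of BALB/c fetal ear null for both Myf5 and Myod1, called the double knockout here, and 1 held RNA of wild-type BALB/c fetal ear. Myf5 and Myod1 are transcription factors through which embryonic cells become skeletal muscle, and the series asks what that muscle does for ear development. The labels name no other allele or treatment, and they give neither the part of the ear that was taken nor the number of embryos behind each RNA.

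Each genotype had 1 array, so none of the differences could be set against the spread between fetuses and no test was possible; how precise any value is depends on that number of arrays. Values are the deposited log2 signals, where a step of 1 is a 2-fold change, and a difference is the double knockout minus the wild type. A floor was set at the median of all probe sets on each array, at 5.70 in the double knockout and 5.65 in the wild type; signals below it were raised to it, and a fold against it is written "at least". As a scale for single differences, 619 genes with several probe sets gave a standard deviation of 0.17 between probe sets of a gene. It measures how far the differences of such probe sets disagree, whatever the source, and holds no spread between fetuses. Probe sets differ in brightness for reasons of design, so levels are compared between arrays and not between genes. A summed linear signal follows mostly the brightest genes of its list. These were Fabp7 for astrocytes and radial glia, Zic2 for hindbrain and cerebellum and Pmp22 for Schwann cells.

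The arrays differed in muscle genes. Of 13 contractile genes of skeletal muscle, 7 exceeded both floors and all 7 read lower by 2-fold or more in the double knockout, where the other 6 were under the floor. The 13 had summed linear signals of 617 in the double knockout and 33600 in the wild type. Myod1 read 6.38 in the double knockout and 6.95 in the wild type, and Myf5 read 5.25, under the floor, in the double knockout and 5.94 in the wild type. Whether these probe sets lie within the deleted sequence is not known here. Of 13 genes typical of the inner ear, 10 exceeded the floor on both arrays, with a median difference of 0.00 and a range of -0.19 to 0.32. Among them Oc90, which forms the core of otoconia, read 11.26 in the double knockout and 11.28 in the wild type, so the labelled tissue was represented on both arrays.

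Most of the neuronal genes read somewhat higher in the double knockout ear. 34 of the 35 exceeded the floor on both arrays, and of these 27 were above 0 and 7 below 0, with a median difference of 0.28 and a range of -0.33 to 1.45. Of the 12458 genes that exceeded it on one array or both, 48.0% were above 0 and the median was -0.01, and of the 11626 that exceeded it on both, 47.6% were. The list had 8 genes at least 1.5-fold higher in the double knockout, or 23.5% of the 34, against 2.25% of the 12458 genes and 2.06% of the 11626. It had 0 at least 1.5-fold lower, against 3.62% and 2.67%. At 2-fold it had 3 higher genes, Cntn2, Grm5 and Dab1, against 0.482% and 0.361%, and 0 lower genes, against 1.71% and 0.989%. Those 3 genes were already known from earlier results on these arrays to be among the largest differences when the list was drawn up. Without them, 24 of 31 genes were above 0, the median was 0.21, 5 were at least 1.5-fold higher and 0 at least 2-fold higher. In whole-tissue RNA, more neurons and more of these transcripts per neuron cannot be told apart.

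**Figure D1:**
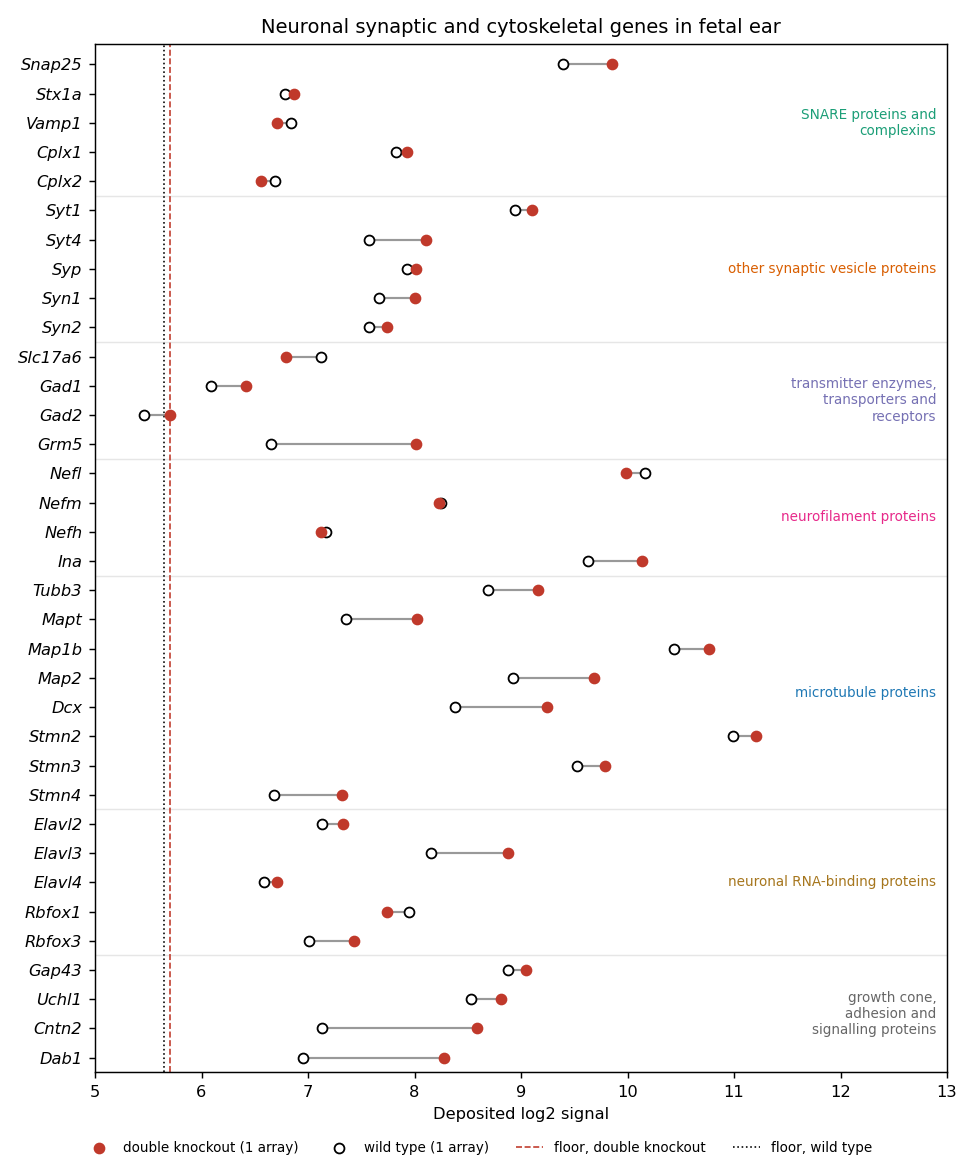
Deposited log2 signal (horizontal axis) of the 35 genes on the double knockout array (filled circles) and the wild-type array (open circles), 1 array each, grouped by role; vertical lines mark the floor of each array. The microtubule genes all have the filled circle to the right, whereas the neurofilament genes Nefl, Nefm and Nefh have it at or slightly to the left of the open one.

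Neurons release transmitter when calcium entering the terminal makes vesicles fuse with the membrane. The SNARE proteins on vesicle and membrane drive that fusion, synaptotagmins sense the calcium and complexins clamp and assist the complex. The long processes of neurons are held by microtubules, which tubulins form and associated proteins such as tau stabilise, and by neurofilaments, which accumulate as axons thicken. In the ear such genes are known from the spiral and vestibular ganglion neurons, from the axons that reach the hair cells, and from nerves of the skin and muscle of the outer and middle ear. Many genes of this kind carry RE1, an element bound by the repressor REST, which keeps them silent in cells that are not neurons.

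As a description of sequence, the promoters of the listed genes were searched on both strands for letters from the left and the right part of RE1, CAGCACC and GGACAGC. RefSeq promoter windows on GRCm38.p6, running from 250 bases before to 50 bases after the start, were found for 25 of the 35 genes, in 39 windows. The left part occurred in 4 of the 39 windows, or 10.3%, and in 7.14% of all 32851 windows. The right part occurred in 3, or 7.69%, and in 6.56% of all windows. Either was present in 15.4% of the windows of the list and in 13.1% of all windows. Both were present in 1 window of the list, that of Tubb3, and in 0.575% of all windows. Each part was searched alone and only within these windows, so the shares do not count whole RE1 elements. Counted by gene, the left part occurred for 4 of 25, or 16%, against 8.14% of all 27025 genes, and the right part for 3 of 25, or 12%, against 7.59%. Among the 9920 genes with a window that exceeded the floor on one array or both, the shares were closer, at 9.28% for the left part and 9.4% for the right. Genes of the list averaged 1.56 windows each and all genes 1.22, and these shares rest on 6 genes in all. The stretches below show the matches that lie upstream of the start, written on the strand of the gene with the matched letters, or their reverse complement, in capitals.
Syn1: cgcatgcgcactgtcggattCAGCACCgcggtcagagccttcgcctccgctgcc
Tubb3: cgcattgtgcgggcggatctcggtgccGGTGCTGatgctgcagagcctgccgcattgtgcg
Dab1: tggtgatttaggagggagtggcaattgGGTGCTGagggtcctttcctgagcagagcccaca
Map2: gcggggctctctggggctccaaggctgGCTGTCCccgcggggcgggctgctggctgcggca
Gad2: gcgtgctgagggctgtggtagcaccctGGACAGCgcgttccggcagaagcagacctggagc
They lie on GRCm38.p6 at chrX:20921115-20921168 (minus strand) for Syn1, chr8:123411405-123411465 for Tubb3, chr4:103619299-103619359 for Dab1, chr1:66175082-66175142 for Map2 and chr2:22622145-22622205 for Gad2, the last 4 on the plus strand. The match in Syn1, which encodes synapsin I, starts 230 bases before the start site, and the Dab1 window is 1 of the 2 listed for that gene. A match is a run of letters and not a measured binding site, and REST itself read 8.05 in the double knockout and 8.25 in the wild type. Of these 5 genes, Gad2 was not above the floor, Syn1 differed by 0.34, Tubb3 by 0.47, Map2 by 0.76 and Dab1 by 1.32. Any part of REST in these differences was not tested.

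The microtubule genes, the largest role group, were all higher in the double knockout. All 8 differed by 0.21 or more, with a median of 0.56, and 4 were at least 1.5-fold higher. Of all genes above both floors, 47.6% were above 0 and 2.06% at least 1.5-fold higher. These shares apply to the other role groups too. Dcx, doublecortin, which stabilises microtubules in migrating and newly formed neurons, read 9.25 in the double knockout and 8.38 in the wild type, 1.82-fold higher; 0.795% of all genes above the floor had a larger difference. Map2, the microtubule-associated protein of dendrites, read 9.68 in the double knockout and 8.93 in the wild type, 1.69-fold higher. Mapt, which encodes the axonal protein tau, read 8.02 in the double knockout and 7.36 in the wild type, 1.58-fold higher. These 3 proteins bind microtubules in different parts of the neuron, and all 3 were past 1.5-fold. Stmn4, a stathmin, a family that takes up tubulin dimers and destabilises microtubules, read 7.32 in the double knockout and 6.68 in the wild type, 1.56-fold higher.

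The other 4 microtubule genes were closer together on the arrays. Tubb3, the beta-tubulin used as a general neuron marker, read 9.16 in the double knockout and 8.69 in the wild type, 1.39-fold higher. Map1b, a microtubule-associated protein of growing axons, read 10.76 in the double knockout and 10.43 in the wild type, 1.26-fold higher. The stathmins Stmn3 and Stmn2 are neuronal relatives of Stmn4. Stmn3 read 9.79 in the double knockout and 9.52 in the wild type, and Stmn2 read 11.20 in the double knockout and 10.99 in the wild type. The difference was thus 0.21 for Stmn2, 0.26 for Stmn3 and 0.64 for Stmn4, so only Stmn4 of the 3 stathmins was past 1.5-fold. A second Stmn3 probe set lay under the floor on both arrays.

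The neurofilament subunits did not share this direction, apart from Ina. Nefl, the light subunit, read 9.99 in the double knockout and 10.16 in the wild type. Nefm, the medium subunit, read 8.23 in the double knockout and 8.25 in the wild type, and Nefh, the heavy subunit, read 7.12 in the double knockout and 7.17 in the wild type. The differences of -0.17, -0.02 and -0.04 were about as large as the standard deviation between probe sets of a gene or smaller, and that of Nefm turned to 0.01 when the arrays were scaled to equal medians and to 0.04 after quantile normalization. Ina, alpha-internexin, a neurofilament protein made early and kept in the central nervous system, read 10.14 in the double knockout and 9.63 in the wild type, 1.42-fold higher. Its second probe set read 9.80 in the double knockout and 9.21 in the wild type, a difference of 0.59.

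**Figure D2:**
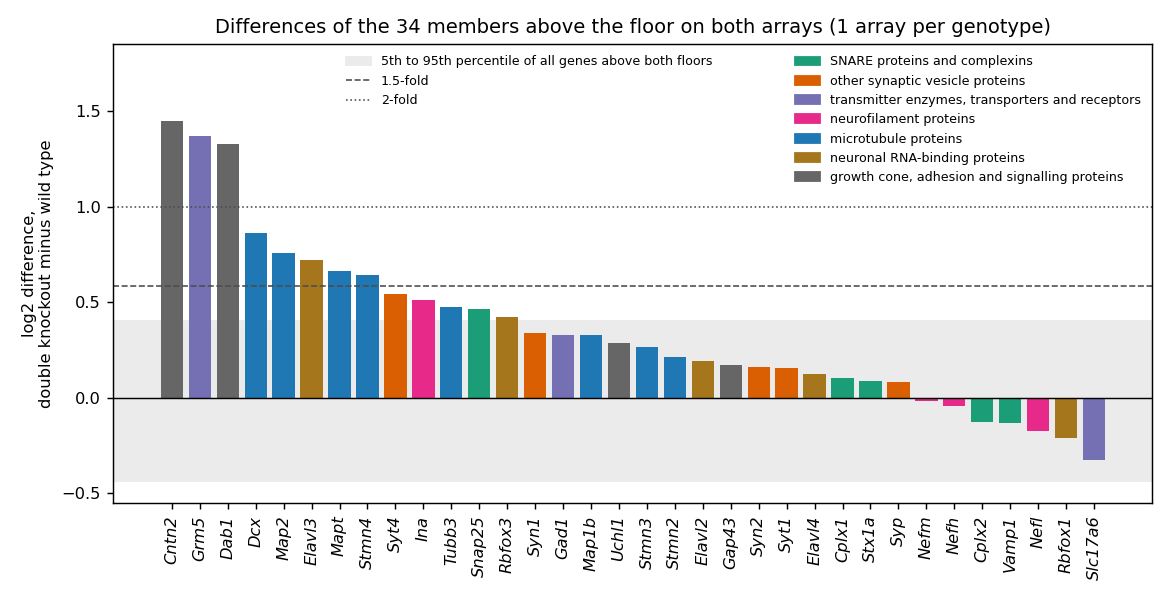
Log2 difference, double knockout minus wild type (vertical axis), of the 34 genes that exceeded both floors, in order of size and coloured by role; 1 array per genotype. 8 bars pass the dashed line at 1.5-fold, 3 pass the dotted line at 2-fold and none reaches 1.5-fold in the lower direction, where Slc17a6 has the largest at -0.33; the grey band spans the 5th to 95th percentile of all genes above both floors, from -0.44 to 0.40.

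Of the 5 SNARE and complexin genes with a probe set, 3 were above 0 and 2 below, and none was past 1.5-fold. Snap25, a SNARE protein of the plasma membrane, read 9.86 in the double knockout and 9.39 in the wild type, 1.38-fold higher. A larger difference than that of Snap25 was found in 3.97% of the 12458 genes above the floor on one array or both. Its partner Stx1a, syntaxin 1A, read 6.87 in the double knockout and 6.78 in the wild type. Vamp1, a vesicle SNARE that motor terminals and many peripheral and brainstem neurons use, read 6.70 in the double knockout and 6.84 in the wild type. Snap25 was therefore the only one of the 3 fusion proteins whose difference exceeded the standard deviation between probe sets. The complexins lay on opposite sides of 0: Cplx1 read 7.93 in the double knockout and 7.83 in the wild type, and Cplx2 read 6.56 in the double knockout and 6.69 in the wild type.

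All 5 genes of other synaptic vesicle proteins were above 0, with a median of 0.16, and none was past 1.5-fold. Syt4, a synaptotagmin that binds calcium weakly and sits on dense-core and postsynaptic vesicles, was nearest to it, with 8.11 in the double knockout and 7.57 in the wild type, 1.46-fold higher. Syt1, the calcium sensor of fast release, read 9.10 in the double knockout and 8.95 in the wild type. Syn1, which tethers vesicles to actin, read 8.01 in the double knockout and 7.67 in the wild type, 1.26-fold higher, whereas its relative Syn2 read 7.74 in the double knockout and 7.58 in the wild type. Syp, synaptophysin, an abundant membrane protein of vesicles, read 8.01 in the double knockout and 7.93 in the wild type. The differences of Syt1, Syn2 and Syp, at 0.15, 0.16 and 0.08, were no larger than the standard deviation between probe sets.

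Genes that set the transmitter of a neuron went both ways. Slc17a6, the vesicular glutamate transporter of brainstem, thalamic and sensory neurons, had the largest lower difference on the list, with 6.80 in the double knockout and 7.12 in the wild type, 1.25-fold lower. Gad1, which makes the inhibitory transmitter GABA, read 6.42 in the double knockout and 6.09 in the wild type, 1.26-fold higher. Gad2, the second GABA-synthesising enzyme, read 5.70 in the double knockout and 5.46 in the wild type; neither value was above its floor and no difference is given. Grm5, a metabotropic glutamate receptor of forebrain neurons and young glia, read 8.02 in the double knockout and 6.65 in the wild type, 2.58-fold higher. Slc17a7, another vesicular glutamate transporter, which was not on the list and was named after its values were seen, read 6.91 in the double knockout and 6.33 in the wild type. Slc17a6 and Slc17a7 lay on opposite sides of 0, a contrast drawn only once the values of Slc17a7 were known.

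The neuronal RNA-binding proteins control splicing and stability of neuronal transcripts, and 4 of the 5 were above 0. Elavl3 read 8.88 in the double knockout and 8.16 in the wild type, 1.65-fold higher. A larger difference than that of Elavl3 was found in 1.32% of the 12458 genes above the floor on one array or both. Its close relatives, which share its RNA recognition motifs, differed less: Elavl2 read 7.33 in the double knockout and 7.13 in the wild type, and Elavl4 read 6.71 in the double knockout and 6.59 in the wild type. Rbfox3, the NeuN antigen of mature neurons, read 7.43 in the double knockout and 7.01 in the wild type, 1.34-fold higher, but with the floor at the 75th percentile its difference was a bound of 0.06. Rbfox1, a splicing factor that neurons share with heart and skeletal muscle, read 7.74 in the double knockout and 7.95 in the wild type, 1.16-fold lower. The contractile genes of skeletal muscle were lower in the same array, and their part in the Rbfox1 value was not tested.

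Gap43 and Uchl1, which neurons express broadly, were modestly higher. Gap43, a membrane protein of growth cones, read 9.05 in the double knockout and 8.88 in the wild type, and Uchl1, a deubiquitinating enzyme abundant in neurons, read 8.82 in the double knockout and 8.53 in the wild type. Cntn2 and Dab1 mark particular neurons and not neurons in general, and with Grm5 they had the largest differences on the list. The 4 genes of this role group were all above 0, with a median of 0.81 and 2 past 1.5-fold, which are these 2. Of all genes above both floors, 2.06% were at least 1.5-fold higher. Cntn2, Dab1 and Grm5 were listed with their large differences already known, so this median, this count and the ranks below follow largely from that choice. Cntn2, a contactin on the axons of subsets of growing neurons, read 8.58 in the double knockout and 7.14 in the wild type, 2.73-fold higher. Dab1, the adaptor that carries the reelin signal inside migrating neurons, read 8.28 in the double knockout and 6.95 in the wild type, 2.50-fold higher. In order of difference over all genes Cntn2 was 22nd, Grm5 24th and Dab1 27th of 12458. Each rests on 1 probe set.

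**Figure D3:**
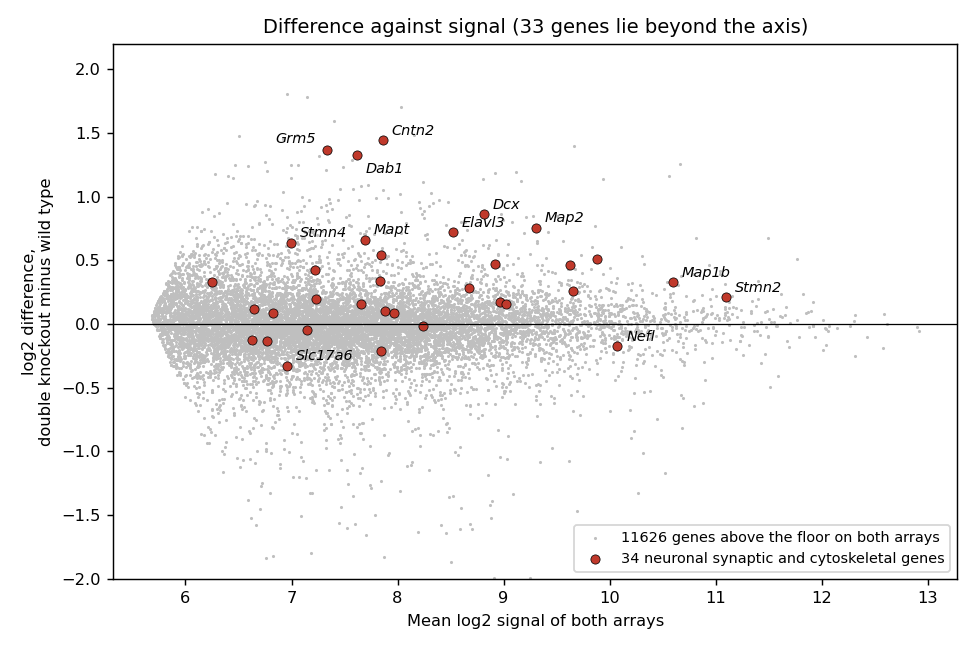
Log2 difference, double knockout minus wild type (vertical axis), against the mean log2 signal of both arrays (horizontal axis) for 11626 genes above the floor on both arrays (grey) and the 34 neuronal genes among them (red); 1 array per genotype. The red points lie mostly in the upper part of the grey cloud over the whole range of signal, with Cntn2, Grm5 and Dab1 highest; 33 grey genes lie below the axis.

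Neuronal genes outside the list leaned the same way. Of 115 further genes in 5 lists, 105 had a probe set of their own and 93 exceeded the floor on both arrays. Of the 93, 77 were above 0 and 16 below, with a median of 0.25; 15 were at least 1.5-fold higher and 1 at least 1.5-fold lower, and 2 were at least 2-fold higher. Of all 11626 genes above both floors, 2.06% were at least 1.5-fold higher, 2.67% at least 1.5-fold lower and 0.361% at least 2-fold higher. The same shares apply to the counts of the lists below. In lists that small, a count of 0 past 1.5-fold is near them. The genes of the 5 lists share arrays with the first list and are not a second measurement of it. Not all of them are specific to neurons, and Elavl1 and Rbfox2, among others, are made by many cell types.

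Presynaptic genes had a median of 0.23, with 26 of 30 above 0, 2 at least 1.5-fold higher and 1 at least 1.5-fold lower. Syt5, a synaptotagmin, was highest, with 9.02 in the double knockout and 8.28 in the wild type. Sv2c, a vesicle glycoprotein, was lowest, with 6.63 in the double knockout and 7.28 in the wild type. Postsynaptic genes had a median of 0.41, with 19 of 22 above 0, 6 at least 1.5-fold higher and 0 at least 1.5-fold lower. Grin2b, the NMDA receptor subunit that prevails before birth, read 7.57 in the double knockout and 6.42 in the wild type, 2.21-fold higher. Dlg4, which encodes the scaffold PSD-95, read 8.87 in the double knockout and 8.40 in the wild type, while Camk2a, a kinase of mature excitatory synapses, read 7.23 in the double knockout and 7.71 in the wild type.

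Further cytoskeletal genes had a median of 0.25, with 16 of 19 above 0 and 3 at least 1.5-fold higher. Crmp1, a collapsin response mediator that guides axons, read 9.93 in the double knockout and 9.08 in the wild type, 1.80-fold higher, and Tubb2b, a beta-tubulin of developing neurons, read 11.15 in the double knockout and 10.47 in the wild type, 1.60-fold higher. Prph, peripherin, an intermediate filament of peripheral neurons, read 8.23 in the double knockout and 8.75 in the wild type, 1.43-fold lower. Further RNA-binding genes had a median of 0.49, with 7 of 8 above 0 and 3 at least 1.5-fold higher; Celf3 led with 7.83 in the double knockout and 6.93 in the wild type. Neuronal adhesion genes had a median of 0.13, with 9 of 14 above 0. Chl1, a relative of L1cam, read 8.53 in the double knockout and 7.51 in the wild type, 2.03-fold higher, whereas Ncam1, which muscle also makes, read 10.32 in the double knockout and 10.43 in the wild type.

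Genes that mark kinds of neurons differed in side and size from list to list; their counts, and those of the glial lists, cover genes above the floor on both arrays. The 6 such cortical transcription factors had a median of 1.12 and were all above 0, with 5 at least 1.5-fold and 4 at least 2-fold higher. Several of these genes were known from earlier results on these arrays to differ when the list was drawn up. The summed linear signal of all 10 with a probe set was 1580 in the double knockout and 675 in the wild type. Fezf2, a factor of deep-layer cortical neurons, read 7.85 in the double knockout and 6.05 in the wild type, and Lhx2, a forebrain patterning factor, read 8.19 in the double knockout and 6.60 in the wild type. Under the floor were 0 of the 10 in the double knockout and 4 in the wild type, Tbr1, Neurod6, Emx1 and Eomes, which could enter with a higher value alone and are left out of the counts; Emx1 and Eomes were named after their values were seen.

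Genes of peripheral sensory ganglia lay the other way. They had a median of -0.38 over 10 genes, of which 2 were above 0 and 7 below, with 0 past 1.5-fold in either direction. The summed linear signal of all 14 with a probe set was 1500 in the double knockout and 1780 in the wild type. Scn10a, a sodium channel of pain-sensing neurons, read 6.16 in the double knockout and 6.71 in the wild type, and Ret, a receptor for glial-derived growth factors, read 7.34 in the double knockout and 7.89 in the wild type. Ntrk3, the receptor for neurotrophin-3, was the highest, with 7.46 in the double knockout and 7.28 in the wild type. Tlx3, Calcb and Trpv1 were under the floor on both arrays, and Pou4f1 was under it in the double knockout; these 4 were picked out once their values had been seen. The median of the shared neuronal genes was 0.28, or 0.21 without Cntn2, Dab1 and Grm5. It lay between those of the cortical and the ganglion genes. The shared and the cortical lists both held genes already known to differ on these arrays, so this order depends partly on how they were chosen.

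Hindbrain and cerebellar genes had a median of 0.00 over 6 genes, 3 above 0 and 3 below, with 0 past 1.5-fold, and summed linear signals of 1480 in the double knockout and 1300 in the wild type. Zic2, a factor of the dorsal neural tube, read 9.58 in the double knockout and 9.19 in the wild type, and Hoxb2, a hindbrain patterning factor, read 5.88 in the double knockout and 6.37 in the wild type. Barhl2, En1, En2 and Gbx2, named after their values were seen, were under the floor on both arrays. The part that neurons of different origin have in the differences of the shared neuronal genes was not tested.

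**Figure D4:**
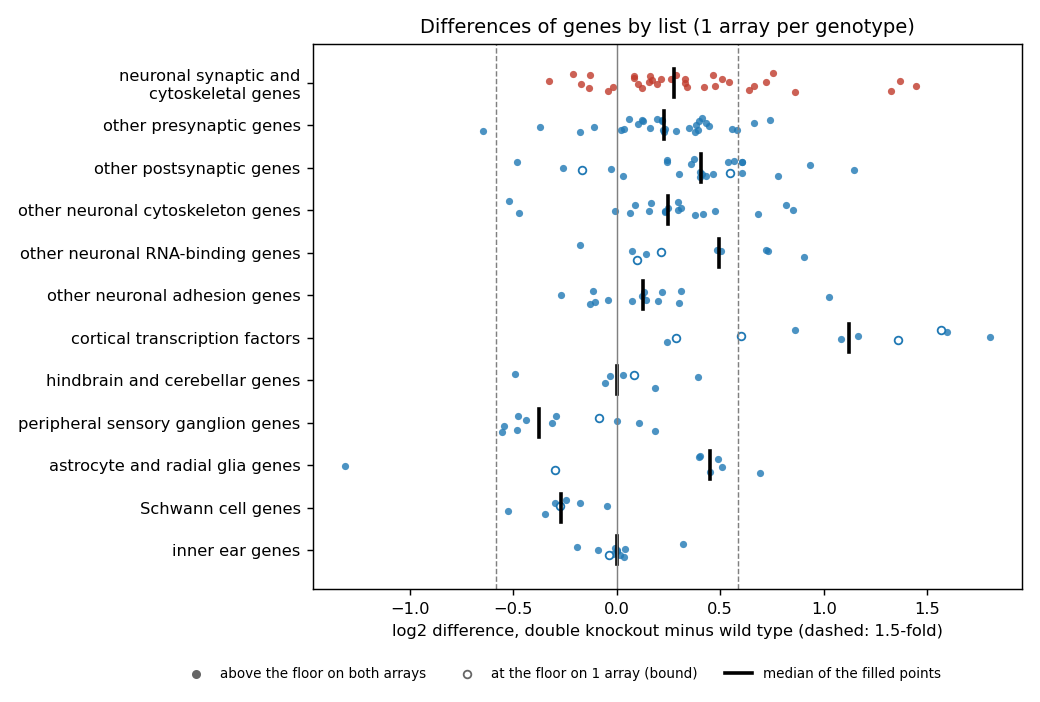
Log2 difference, double knockout minus wild type (horizontal axis), of each gene that exceeded the floor on one array or both, by list; filled points were above the floor on both arrays, open points are bounds, and black bars are medians of the filled points; 1 array per genotype. The shared neuronal genes in the top row have a median of 0.28, the cortical factors one of 1.12, the peripheral sensory ganglion genes one of -0.38 and the inner ear genes one of 0.00.

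Glial lists also differed in side. Astrocyte and radial glia genes had a median of 0.45, with 6 of 7 above 0, 1 at least 1.5-fold higher and 1 at least 1.5-fold lower, and summed linear signals of 6490 in the double knockout and 4990 in the wild type. Fabp7, a fatty acid-binding protein of radial glia and of immature Schwann cells, read 12.02 in the double knockout and 11.51 in the wild type, and Hes5, a Notch target of neural progenitors, read 6.82 in the double knockout and 6.13 in the wild type. Nes, nestin, a filament of neural progenitors that developing muscle also makes, was the exception among these 7. It read 7.37 in the double knockout and 8.68 in the wild type, 2.48-fold lower. Outside the 7, Aqp4 was lower too, at 5.21, under the floor, in the double knockout and 6.00 in the wild type. Gfap was under the floor on both arrays. Both were named after their values were seen.

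Schwann cells wrap peripheral axons, and the 6 of their genes above both floors were below 0, with a median of -0.27 and 0 past 1.5-fold. With Cdh19, named after its values were seen and under the floor in the double knockout, their summed linear signal was 3500 in the double knockout and 4220 in the wild type. Ngfr, the low-affinity neurotrophin receptor, read 8.75 in the double knockout and 9.27 in the wild type, and Sox10, the factor that specifies these glia, read 8.10 in the double knockout and 8.15 in the wild type. Oligodendrocyte genes had a median of -0.17 over 4 genes, 2 above 0 and 2 below. Cspg4, a proteoglycan of their precursors, differed by -0.40, Cnp, a myelin enzyme, by -0.35 and Pdgfra, a receptor of those precursors and of connective tissue, by 0.01. Olig2, a factor of that lineage, read 6.14 in the double knockout and 5.36, under the floor, in the wild type. These levels moved beside those of the shared neuronal genes, and their part in them was not tested.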

How the data were processed

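Expression was measured on 1 double knockout and 1 wild-type array, grouped by the sample titles. The authors deposited log2 signals of 35557 probe sets; the base was inferred from their range. The submitters' processing notes name MAS5, which reads mismatch probes that whole-transcript arrays such as this one lack, so how the values were made is unsettled; any background correction or normalization and the genome build are unstated. Medians were 5.70 in the double knockout and 5.65 in the wild type, and means of the linear signals without 2% at each end were 138 and 140, so the deposited scale was kept. The platform annotation paired 21789 probe sets with 1 gene, 1621 with several and 12147 with none; 21698 identifiers were found in the RefSeq table (GRCm38.p6), used for names and synonyms. Genes kept the probe set of highest mean linear signal, and differences were taken above a floor at the 50th percentile, with counts at 1.5-fold and 2-fold. With 1 array per group no test was run. The calculation was tested on simulated data. Named genes were all members and, for the other lists, the 3 of highest mean signal, those at least 2-fold different and the largest difference in each direction, with others said to be chosen after their values were seen; where a list's medians and counts sufficed, not every such gene is given. The members, lists and rules were chosen with earlier results of these data known. 9 alternatives were run, in python 3.11.15 with numpy 2.4.6, pandas 2.3.3 and statsmodels 0.14.6.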

Additional observations from a re-analysis of the deposited data

How the results depend on the processing

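The median difference of the neuronal genes stayed above 0 under each of the 9 alternatives, from 0.21 without Cntn2, Dab1 and Grm5 to 0.33 with the floor at the 75th percentile, while the median of all genes ranged from -0.02 to 0.05. The count at least 1.5-fold higher was 8 and ranged from 5, without those 3 genes, to 9, after quantile normalization; it was 6 with a pseudocount, where Mapt and Stmn4 fell short. The count at least 2-fold higher was 3, with 1 at the 75th percentile floor, which raised the wild-type signals of Dab1 and Grm5, and 0 without the 3 genes. No member was at least 1.5-fold lower under any of them. Of 263 member values under single alternatives, 255 moved by less than the standard deviation between probe sets and 8 by more. Many of the 255 could not move. The lower floor and no floor left these values unchanged, because the genes already exceeded both floors. Scaling to equal medians shifted all genes alike, and the median over probe sets could change only Ina and Stmn3. All 8 larger moves came from the floor at the 75th percentile or the pseudocount. Gad2, with no difference above the floor, gave 0.24 without one. No paired analysis was possible because each genotype has 1 array, and leaving out a replicate was not possible for the same reason. Depth in the sense of counts does not apply to arrays; signals near the floor, such as those of Gad1 and Gad2, limit what can be read from them.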

Other observations

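Dab1 acts downstream of reelin, and the other genes of that pathway gave mixed values. Lrp8, a reelin receptor, read 8.11 in the double knockout and 7.35 in the wild type, 1.69-fold higher. The other receptor gene, Vldlr, named after its values were seen, read 7.93 in the double knockout and 7.89 in the wild type. Reln, which encodes reelin and was named in the same way, read 7.84 in the double knockout and 7.52 in the wild type. The 6 listed genes had a median of 0.03, with 4 above 0 and 2 below. Crk and Crkl, the adaptors that phosphorylated Dab1 recruits, differed by -0.23 and 0.01. The corepressors that act with REST lay on both sides of 0: Rcor1 differed by -0.16, Rcor2 by 0.16 and Rcor3 by -0.23.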
